A study of Mus musculus with 4 samples.

Results

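The genes described here are 46 named genes of the DNA replication machinery, chosen by symbol from the 55573 genes of a mouse ribosome profiling (Ribo-seq) table, and all 46 were found. They cover origin licensing, the replicative helicase and its activation, polymerases and primase, the sliding clamp and its loader, single-strand binding, Okazaki fragment maturation, nucleotide supply, chromatin assembly and DNA methylation behind the fork, histone mRNA processing and fork protection. The study asked how the translation factor eIF5A acts in muscle stem cells, and the comparison described here asked how ribosome footprints on mRNAs differed between primary myoblasts of WT and eIF5A-knockout mice. There were 4 libraries, WT replicates 1 and 2 and KO replicates 1 and 2, and values are given in that order throughout.

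Both groups were primary myoblasts from mice of 3 weeks of age, grown with FGF in proliferation conditions and labelled Day 2, with ribosomes arrested by cycloheximide. The knockout mice were Pax7CreERT2/+;eIF5Af/f, in which a tamoxifen-inducible Cre recombinase is made from the locus of Pax7, a gene of muscle stem cells, so cells that never expressed Pax7 would keep an intact allele. The study describes its WT controls in more than one way, as Pax7CreERT2/+ mice, as Pax7+/+;eIF5Af/f mice and, for these myoblasts, as littermates of the knockouts, and the labels say only WT. The labels do not say whether the 2 libraries of a group came from separate mice or cultures, nor whether mice were pooled, so a test over them measures the spread between these libraries, which may be technical.

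Before a cell divides it copies its genome in S phase. The origin recognition complex, with Cdc6 and Cdt1, loads a ring of related MCM proteins on DNA in G1; Cdc45 and the GINS complex then turn that ring into an active helicase, and polymerases alpha, delta and epsilon copy the strands behind it with the clamp PCNA. Many of these genes are transcribed together at the G1/S transition under E2F transcription factors, and their products decline when a myoblast leaves the cell cycle to differentiate.

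The promoter letters of the set were searched for E2F-type motifs. Of the 46 genes, 38 had a RefSeq promoter window (GRCm38.p6, 250 bases before the transcription start and 50 from it on). An E2F-type motif, here any of TTTCCCGC, TTTGGCGC, TTTCGCGC and TTTGCCGC on either strand, with overlapping matches counted, occurred in 16 of these 38 genes (42.1%). The same motif occurred in 11 of 41 other replication genes (26.8%), in 2 of 26 mitosis genes (7.69%), in 388 of the 7848 protein-coding genes tested that had a window (4.94%) and in 704 of all 27025 genes with a window (2.61%). The CCAAT box occurred in 26 of 38 replication genes (68.4%), in 17 of 41 other replication genes (41.5%), in 21 of 26 mitosis genes (80.8%), in 42.3% of the protein-coding genes tested and in 41.1% of all genes. The 180 bases before the start are shown for 5 genes whose E2F-type motif lies upstream, since they include 2 licensing factors, 2 helicase subunits and the catalytic subunit of polymerase alpha. Each is written 5′ to 3′ on the strand of its gene, with the E2F-type motifs in capitals, and a match is a description of the letters and not of a bound site.
Orc1 (chr4:108579274-108579453, plus strand): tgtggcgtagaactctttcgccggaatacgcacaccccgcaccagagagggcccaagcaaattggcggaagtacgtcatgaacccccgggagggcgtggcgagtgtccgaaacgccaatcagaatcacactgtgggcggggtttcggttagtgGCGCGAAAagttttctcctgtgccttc
Cdc6 (chr11:98907971-98908150, plus strand): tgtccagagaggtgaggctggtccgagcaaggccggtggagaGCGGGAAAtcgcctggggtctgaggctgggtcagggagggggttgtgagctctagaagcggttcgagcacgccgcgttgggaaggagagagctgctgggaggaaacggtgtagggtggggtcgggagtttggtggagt
Mcm5 (chr8:75109329-75109508, plus strand): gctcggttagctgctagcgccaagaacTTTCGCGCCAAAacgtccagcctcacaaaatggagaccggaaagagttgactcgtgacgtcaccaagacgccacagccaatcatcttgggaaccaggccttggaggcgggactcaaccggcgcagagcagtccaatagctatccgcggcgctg
Mcm6 (chr1:128359706-128359885, minus strand): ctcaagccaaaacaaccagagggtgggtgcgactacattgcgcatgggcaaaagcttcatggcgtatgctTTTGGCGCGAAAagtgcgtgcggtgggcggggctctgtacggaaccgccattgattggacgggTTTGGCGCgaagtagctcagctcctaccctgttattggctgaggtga
Pola1 (chrX:93632156-93632335, minus strand): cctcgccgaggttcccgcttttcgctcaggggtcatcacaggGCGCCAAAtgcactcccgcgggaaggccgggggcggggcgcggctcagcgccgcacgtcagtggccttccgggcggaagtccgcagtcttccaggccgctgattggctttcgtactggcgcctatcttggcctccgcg
In Mcm5 the capitals are 2 overlapping matches on opposite strands, and Mcm6 holds such an overlapping pair and a further match nearer the start.

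The libraries were shallow. From the deposited RPKM values (read density per kb of gene length, scaled for depth by the authors), 642429 to 704006 gene-assigned reads per library were recovered, of which 41.5% and 33.9% lay in protein-coding genes in the WT libraries and 65.4% and 59.2% in those labelled KO. A count of 0 allows up to 3 reads, which for a gene of 1 kb is 4.98, 6.37, 3.31 and 3.71 RPKM in the 4 libraries. Eif5a, the targeted gene, had 34.9 and 65.2 RPKM in the WT libraries and 60.3 and 59.4 RPKM in the labelled-KO libraries, a log2 difference of 0.32 ± 0.48 (SE, n = 2 per group; adjusted p = 0.839, limma), or -0.12 without WT replicate 1 and 0.76 without WT replicate 2. The 2 groups overlapped on this gene, so the label is used below as "labelled KO"; which exons the deletion removes was not examined here. Of the cell type markers, myoblast genes were detected in both groups (8 listed, summed RPKM 253 and 207 in WT, 118 and 132 in labelled KO), with Pax7 at 30, 10, 5 and 7 reads and Myf5, also a defining marker, at 8, 4, 2 and 0 reads. Of these 8 genes 7 had lower values in labelled KO (median log2 difference -1.15). The labelled-KO libraries lay wholly below WT in 5 of the 8 and wholly above in 1 (20.3% and 20.1% of all genes tested). In the limma fit 4 of the 8, Chrna1, Des, Pax7 and Myf5, were lower at an unadjusted p under 0.05, where 4.46% of all genes tested were. Myf5 had a labelled-KO mean of 0.529 RPKM, on reads that do not exceed the 3 that a count of 0 allows. Fibroblast genes were also detected (10 listed, summed RPKM 485 and 292 in WT, 847 and 376 in labelled KO), with 8 of the 10 higher in labelled KO and a median log2 difference of 0.54, or 0.021 without labelled-KO replicate 1 and 0.98 without replicate 2. The 8 include Tcf4 (0.054 ± 0.37), which is not a fibroblast-specific gene. The labelled-KO libraries lay wholly above WT in 4 of the 10 and wholly below in 1 (20.1% and 20.3% of all genes tested). Endothelial and immune genes (10 listed, 7 tested) summed to 131 to 156 RPKM, and both labelled-KO libraries lay above both WT libraries in 4 of the 7 and below in 2 (20.1% and 20.3% of all genes tested). At an unadjusted p under 0.05 Kdr (1.01 ± 0.38) and Adgre1 (1.33 ± 0.50, or 0.84 without WT replicate 1, on 1 and 3 WT reads) were higher and Lyz2 (-1.16 ± 0.37) was lower, where 2.86% and 4.46% of all genes tested were. Because the measurement is bulk, fewer cells of one kind and fewer footprints per cell cannot be told apart.

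Most replication genes had higher footprint levels in the labelled-KO libraries, and no single gene passed the test. Of the 46 genes, 42 passed the filter of a mean of at least 1 RPKM; Gins2, Gins3, Mcm10 and Pole did not. Among those 42 genes the log2 difference (labelled KO minus WT, log2(RPKM + 1)) was positive in 38 and negative in 4, with a median of 0.73, quartiles of 0.31 and 0.93 and a range from -0.81 for Pold2 to 1.79 for Gins1. The median over all 9877 protein-coding genes tested was 0.049. At an adjusted p under 0.05 (limma, Benjamini-Hochberg over 11363 genes) none of the 42 genes was called, the background being 0.106% of all genes, and their smallest adjusted p was 0.660. At an unadjusted p under 0.05 in the same limma fit, 5 of the 42 genes were higher in labelled KO (Mcm4, Rfc4, Rrm1, Rpa2 and Gins1) against a background of 2.86%. None was lower, against a background of 4.46%. The count of 5 was 2 without WT replicate 1, 14 without WT replicate 2, and 1 without either labelled-KO replicate, where the share of all genes tested was 3.93%, 7.12%, 1.80% and 2.36%. Both labelled-KO libraries lay above both WT libraries in 23 of the 42 genes (54.8%), where 20.1% of all genes tested did so, and in 17 of the 42 after removal of the trend on coding GC and length, where 18.3% did so. Both lay below in 1 gene, Pold2, where the background was 20.3%, and the groups overlapped in the other 18. Since 5 of the 42 genes had a WT mean under 1 RPKM and passed the filter only through their labelled-KO values, the count over all 46 genes is also given, with 24 above, 1 below and 21 overlapping. Its background is the share above over the 18961 genes tested with no filter, which was 15.3%. With no filter the median over the 46 was 0.71.

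**Figure D1:**
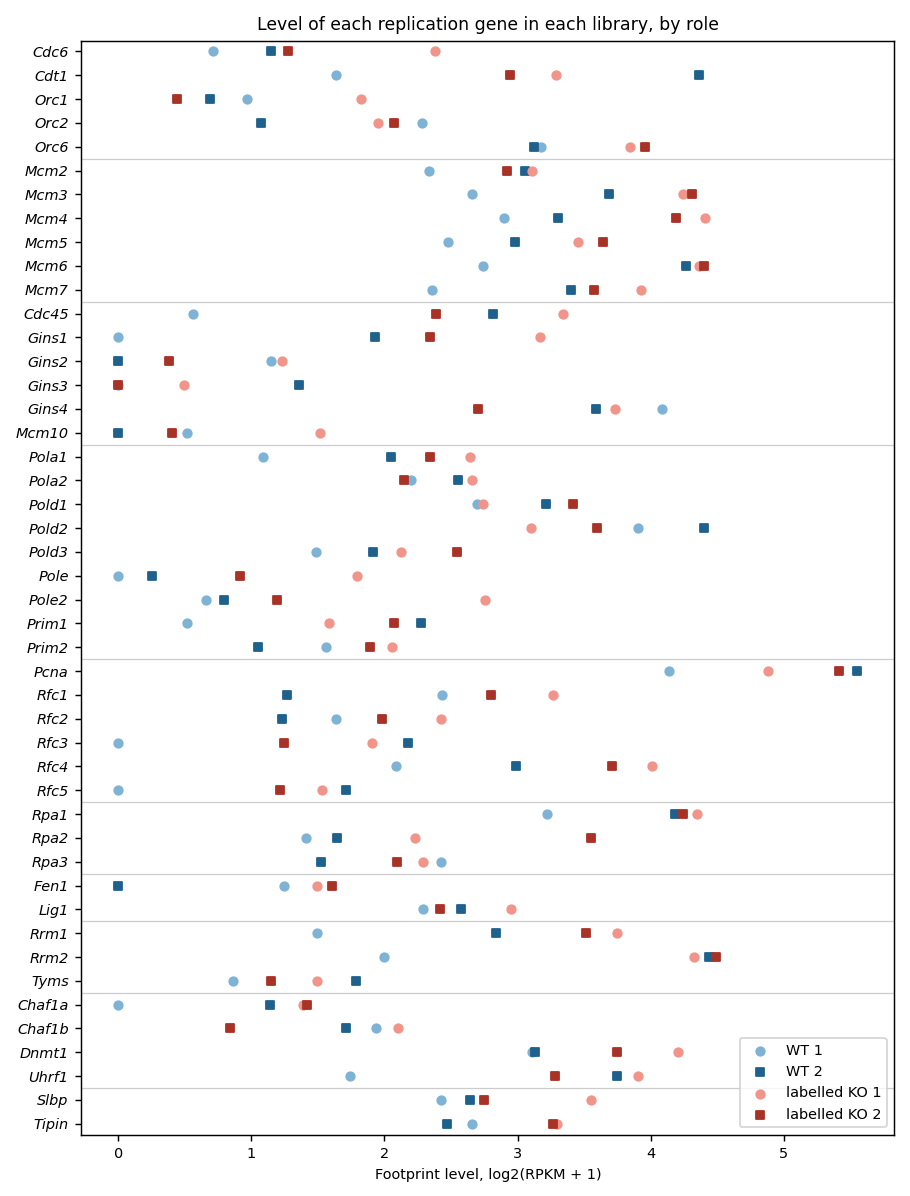
Footprint level of each of the 46 replication genes in each of the 4 libraries, as log2(RPKM + 1) on the horizontal axis, with genes in rows by role and grey lines between roles. Blue points are WT, red points are labelled KO, circles are replicate 1 and squares replicate 2; the first WT library is the lowest of the 4 for 30 of 46 genes.

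A single WT library lay below the others for most of these genes. WT replicate 1 was the lowest of the 4 libraries in 29 of the 42 genes (69.0%), where it was the lowest in 28.0% of all genes tested. WT replicate 2 was at or above the lower of the labelled-KO libraries in 17 of the 42, where it was so in 7392 of all 11363 genes tested. The median level of the 42 genes, on the log2(RPKM + 1) scale, was 2.04 and 2.56 in WT and 3.10 and 2.72 in labelled KO. The gap between the WT replicates was larger than the difference between the groups in 22 of the 42 genes (52.4%), where it was larger in 58.8% of all genes tested. The gap between the labelled-KO replicates was larger in 14 of the 42 (33.3%), where it was larger in 47.4% of all genes tested. With WT replicate 1 left out, the median difference was 0.43, and with WT replicate 2 left out it was 1.04. WT replicate 1 also had the most footprints on muscle differentiation genes (19 listed, summed RPKM 486 in WT 1 against 202, 164 and 200 in the other 3 libraries; 0 reads on 2 to 3 of the listed genes in each library). Myog, the myogenic factor that marks commitment to differentiation, had 82 and 3 reads in WT against 1 and 2 reads in labelled KO, and Actc1, the embryonic sarcomeric actin, had 62 and 5 reads in WT against 3 and 4 reads in labelled KO. Of the 14 differentiation genes tested, 11 had lower values in labelled KO (median log2 difference -1.17, or -0.63 without WT replicate 1). The labelled-KO libraries lay wholly below WT in 7 of the 14 and wholly above in 1 (20.3% and 20.1% of all genes tested). Among the 7, Tnnt3, Ckm and Myl1 passed the filter only through their WT values. In the limma fit 4 of the 14 were lower at an unadjusted p under 0.05, where 4.46% of all genes tested were. The part of these markers, and of the myoblast, fibroblast, endothelial and immune markers and the coding share of reads given above, in the replication result was not tested.

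The pooled counts show the same order with less counting error. The 46 genes together held 386, 567, 1484 and 1129 reads, which was 0.143% (95% Wilson interval 0.130 to 0.158) and 0.261% (0.240 to 0.283) of protein-coding reads in WT and 0.323% (0.307 to 0.339) and 0.293% (0.277 to 0.311) in labelled KO. These intervals cover counting error only, since reads without molecular identifiers are not independent molecules. The mean share was 0.202% ± 0.0828 (SD, n = 2) in WT and 0.308% ± 0.0208 (SD, n = 2) in labelled KO. Set against WT replicate 1 the labelled-KO mean was 2.15-fold higher, and against WT replicate 2 it was 1.18-fold higher.

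**Figure D2:**
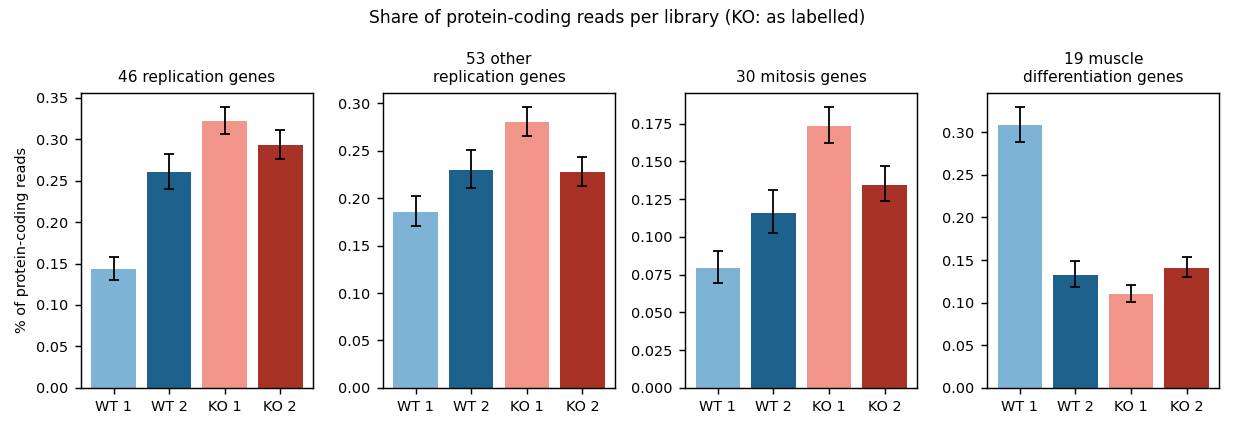
Bars give the percentage of protein-coding reads on 4 gene lists in each library, with 95% Wilson intervals that cover counting error only; each panel has its own vertical axis starting at 0. Replication genes were lowest in the first WT library (0.143%), where muscle differentiation genes were highest (0.308%).

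Footprints per length differed widely among the 46 genes. To compare genes, reads were scaled for depth as in the deposited RPKM but set against coding length, giving a density in depth-scaled reads per kb of coding sequence. Pcna, the sliding clamp, was the densest with a mean of 95.9 in WT and 108 in labelled KO. Slbp (35.4 and 60.4), Rpa1 (36.7 and 53.9), Rrm2 (28.0 and 48.0), Rrm1 (18.5 and 53.0) and Orc6 (24.8 and 43.9) followed, with overlapping values, so that their order is not resolved. At the low end stood Pole (0.155 and 2.74), Orc1 (1.08 and 2.00) and Mcm10 (0.625 and 3.17). A gene of the set had a median of 48 reads over the 4 libraries together (range 3 to 261), 9 genes had under 20, and 11 had 3 reads or fewer in each WT library.

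The 5 origin licensing genes differed from one another in their spread. All 5 had a positive difference, with a median of 0.33, which was 0.68 without WT replicate 1 and 0.72 without WT replicate 2. In 2 of them, Cdc6 and Orc6, both labelled-KO libraries lay above both WT libraries, beside 20.1% of all genes tested. Cdc6 and Orc1 passed the filter only through their labelled-KO values. Cdc6, the loader ATPase, had 0.634 and 1.22 RPKM in the WT libraries and 4.22 and 1.42 RPKM in the labelled-KO libraries (log2 difference 0.90 ± 0.61, or 0.35 without labelled-KO replicate 1). The second labelled-KO library lay just above WT, and the WT values rest on 2 and 3 reads, at or under the floor. Cdt1, the loading partner that is degraded once S phase begins, had 2.11 and 19.6 RPKM in the WT libraries and 8.78 and 6.70 RPKM in the labelled-KO libraries. The difference for Cdt1 was 0.12 ± 0.88 because its WT libraries bracketed both labelled-KO libraries, and without WT replicate 1 it was -1.25. Orc1, the ATPase of the recognition complex that cycles in abundance, had 2 and 1 reads in WT against 8 and 1 reads in labelled KO, at or near the floor in 3 libraries. Orc2, a core subunit, had 3.87 and 1.10 RPKM in the WT libraries and 2.86 and 3.21 RPKM in the labelled-KO libraries (difference 0.33 ± 0.53), and its groups overlapped. Orc6, the smallest subunit of the complex, had close replicates, with 8.06 and 7.74 RPKM in the WT libraries and 13.4 and 14.5 RPKM in the labelled-KO libraries. Its difference was 0.75 ± 0.36 and 0.78 without WT replicate 1, but 0.33 after removal of the trend on coding GC and length, and the reads of Orc6 may include some of Vps35, whose exons overlap it on the other strand.

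The helicase subunits had values of one sign. All 6 had a positive difference, with a median of 0.88, or 0.45 without WT replicate 1, which was the lowest library in all 6, and 1.40 without WT replicate 2. In 5 of the 6 both labelled-KO libraries lay above both WT libraries, beside 20.1% of all genes tested. Mcm4 (chr16:15623897-15637400, minus strand, coordinates as the file gives them, mm10 per the labels) had 6.47 and 8.87 RPKM in the WT libraries and 20.3 and 17.2 RPKM in the labelled-KO libraries. Both labelled-KO libraries were above the WT pair, whose replicates lay close together, and the difference was 1.20 ± 0.39 (95% interval 0.24 to 2.15; adjusted p = 0.660, limma) or 1.00 without WT replicate 1. In reads, Mcm4 had 14 and 15 reads in WT against 66 and 50 reads in labelled KO, a ratio of scaled counts of 2.51 (95% interval 1.66 to 3.91) for counting error only. Mcm3 had 5.31 and 11.9 RPKM in the WT libraries and 17.9 and 18.8 RPKM in the labelled-KO libraries (difference 1.10 ± 0.47, or 0.59 without WT replicate 1). Mcm5 had 4.57 and 6.91 RPKM in the WT libraries and 9.94 and 11.5 RPKM in the labelled-KO libraries (difference 0.82 ± 0.39). In both genes the groups were separate, and WT replicate 1 was the lowest. Mcm6, the subunit with the most reads, had 5.69 and 18.2 RPKM in the WT libraries and 19.6 and 20.2 RPKM in the labelled-KO libraries, so that WT replicate 2 stood beside the labelled-KO pair and the difference of 0.88 ± 0.58 became 0.12 without WT replicate 1. Mcm7 had 4.12 and 9.59 RPKM in the WT libraries and 14.2 and 10.9 RPKM in the labelled-KO libraries, again with WT replicate 1 lowest, and it shares exon sequence with Cops6 and Ap4m1 on the other strand. Mcm2 differed from the other subunits, with 4.05 and 7.32 RPKM in the WT libraries and 7.61 and 6.59 RPKM in the labelled-KO libraries, overlapping groups and a difference of 0.32 ± 0.41.

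Since the subunits work in a single ring, their densities can be set side by side. The mean density over the subunits was 9.18 and 19.3 in WT and 26.6 and 25.2 in labelled KO, in depth-scaled reads per kb of coding sequence. Mcm6 was the densest subunit in every library. The densest subunit exceeded the sparsest 1.32-fold in WT replicate 1, 2.80-fold in WT replicate 2, 2.06-fold in labelled-KO replicate 1 and 2.26-fold in labelled-KO replicate 2, over 81, 133, 351 and 296 reads.

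**Figure D3:**
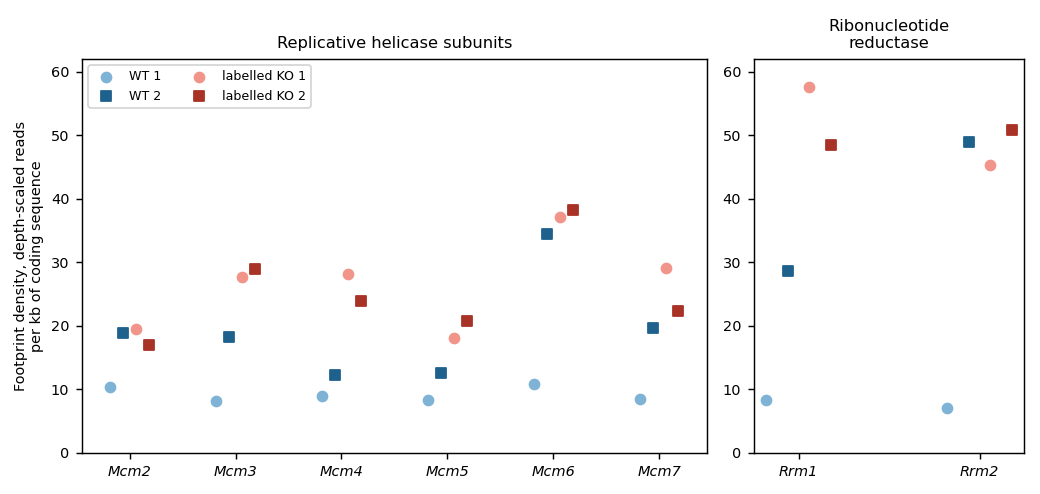
Footprint density on the helicase subunits (left) and on ribonucleotide reductase (right), in depth-scaled reads per kb of coding sequence, 1 point per library with WT in blue, labelled KO in red, circles for replicate 1 and squares for replicate 2. The first WT library is lowest for all 8 genes, and the second lies with the labelled-KO pair for Mcm2, Mcm6 and Rrm2.

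Helicase activation genes had few reads. Of the 6 genes only Cdc45, Gins1 and Gins4 were tested. Gins1 (chr2:150905400-150931280, plus strand), a GINS subunit, had 0 and 2 reads in WT against 11 and 5 reads in labelled KO. Neither WT library exceeded the floor, and the fitted difference of 1.79 ± 0.73 (adjusted p = 0.672, limma) depends on the pseudocount and was 0.83 without WT replicate 1. Cdc45, the helicase cofactor, had 0.473 and 6.05 RPKM in the WT libraries and 9.12 and 4.24 RPKM in the labelled-KO libraries, with overlapping groups and a difference of 1.18 ± 0.80 that was 0.046 without WT replicate 1. Gins4, another GINS subunit, went the other way with 16.0 and 11.0 RPKM in the WT libraries and 12.3 and 5.51 RPKM in the labelled-KO libraries (difference -0.62 ± 0.49), though its groups overlapped and the difference was -1.13 without labelled-KO replicate 1 and -0.11 without replicate 2. Gins2, Gins3 and Mcm10 had totals of 9, 3 and 17 reads over the 4 libraries. Mcm10, a helicase activation factor, had 2 and 0 reads in WT against 13 and 2 reads in labelled KO.

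Polymerases and primase split by subunit. Of 9 genes 8 were tested, 7 of them with a positive difference (median 0.53, or 0.14 without WT replicate 1). Both labelled-KO libraries were above both WT libraries in 4, beside 20.1% of all genes tested, and 1 of the 4, Pole2, passed the filter only through its labelled-KO values. Pola1, the catalytic subunit of polymerase alpha, had 1.13 and 3.13 RPKM in the WT libraries and 5.25 and 4.07 RPKM in the labelled-KO libraries (difference 0.93 ± 0.47, or 0.45 without WT replicate 1), with separate groups and WT replicate 1 lowest. Its partner Pola2, the accessory subunit and the polymerase gene with the most reads, had 3.60 and 4.86 RPKM in the WT libraries and 5.32 and 3.43 RPKM in the labelled-KO libraries, with a difference of 0.027 ± 0.40 (95% interval -0.95 to 1.00). Prim1 and Prim2, the primase subunits, had differences of 0.43 ± 0.69 and 0.67 ± 0.46, the latter 0.41 without WT replicate 2.
The polymerase delta subunits had differences of both signs. Pold2, the small subunit, had 14.0 and 20.2 RPKM in the WT libraries and 7.56 and 11.1 RPKM in the labelled-KO libraries, the one gene of the set with both labelled-KO libraries below both WT libraries (difference -0.81 ± 0.42; adjusted p = 0.680, limma). In reads it had 16 and 18 reads in WT against 13 and 17 reads in labelled KO, a ratio of scaled counts of 0.553 (95% interval 0.327 to 0.931) for counting error only. Pold3 had 1.80 and 2.77 RPKM in the WT libraries and 3.35 and 4.84 RPKM in the labelled-KO libraries (difference 0.63 ± 0.41, or 0.33 after removal of the GC and length trend), with separate groups in the opposite order, and the catalytic subunit Pold1 had a difference of 0.12 ± 0.43. The polymerase epsilon genes had few WT reads. Pole, its catalytic subunit, had 0 and 1 reads in WT against 25 and 8 reads in labelled KO, a ratio of scaled counts of 20.7 (95% interval 3.46 to 841) for counting error only, and it stayed under the filter. Pole2, the second subunit, had 1 and 1 reads in WT against 15 and 3 reads in labelled KO (difference 1.25 ± 0.68, or 0.47 without labelled-KO replicate 1), and the second labelled-KO library was at the floor.

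The clamp and its loader had positive differences in all 6 genes, with a median of 0.64, but without WT replicate 1 the median was 0.27 and Pcna, Rfc3 and Rfc5 were negative. Both labelled-KO libraries were above both WT libraries in 3, beside 20.1% of all genes tested. Pcna had 16.6 and 45.99 RPKM in the WT libraries and 28.5 and 41.8 RPKM in the labelled-KO libraries. The first WT library was low and the second was the highest of the 4, and the difference was 0.31 ± 0.59, or -0.40 without WT replicate 1. Rfc4 (chr16:23113943-23127737, minus strand), a loader subunit, had 3.25 and 6.92 RPKM in the WT libraries and 15.1 and 12.1 RPKM in the labelled-KO libraries (difference 1.33 ± 0.45, or 0.88 without WT replicate 1; adjusted p = 0.668, limma). This rested on 3 and 5 reads in WT against 21 and 15 reads in labelled KO, and Rfc4 shares exon sequence with the translation factor gene Eif4a2 on the other strand, which held 57, 31, 80 and 86 reads. Rfc1, the large loader subunit, had 4.41 and 1.41 RPKM in the WT libraries and 8.61 and 5.96 RPKM in the labelled-KO libraries (difference 1.18 ± 0.51). Here WT replicate 2 and not replicate 1 was the lowest, and the difference was 1.76 without WT replicate 1 and 0.60 without WT replicate 2. Rfc2 had a difference of 0.77 ± 0.44 with separate groups. Rfc3 and Rfc5 had 0 reads in WT replicate 1 and overlapping groups, with differences of 0.49 ± 0.84 and 0.52 ± 0.78.

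Single-strand binding is the work of RPA, a trimer that coats unwound DNA. Rpa1, its large subunit, had 8.33 and 17.1 RPKM in the WT libraries and 19.4 and 18.0 RPKM in the labelled-KO libraries (difference 0.60 ± 0.46, or 0.12 without WT replicate 1), with WT replicate 2 just under the labelled-KO pair. Rpa2 (chr4:132768332-132778752, plus strand) had 1.66 and 2.13 RPKM in the WT libraries and 3.68 and 10.8 RPKM in the labelled-KO libraries (difference 1.36 ± 0.53; adjusted p = 0.672, limma). The labelled-KO replicates of Rpa2 lay far apart, the difference was 0.70 without the second of them, and the counts were 3 and 3 reads in WT against 10 and 26 reads in labelled KO. Rpa3 had 1 to 4 reads per library and overlapping groups (difference 0.22 ± 0.46).

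Okazaki fragment maturation was represented by the flap nuclease Fen1 and the ligase Lig1. Fen1 had 2 and 0 reads in WT against 4 and 4 reads in labelled KO (difference 0.93 ± 0.71, or 0.31 without WT replicate 2), too few to resolve. It passed the filter only through its labelled-KO values. Lig1 had 3.89 and 4.97 RPKM in the WT libraries and 6.72 and 4.35 RPKM in the labelled-KO libraries (difference 0.25 ± 0.39), with overlapping groups.

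Ribonucleotide reductase makes the deoxynucleotides for replication, and its large subunit Rrm1 had the most reads of the set (261). Rrm1 (chr7:102441695-102469771, plus strand) had 1.81 and 6.17 RPKM in the WT libraries and 12.4 and 10.5 RPKM in the labelled-KO libraries. Both labelled-KO libraries were above both WT libraries, with WT replicate 1 far below WT replicate 2, and the difference was 1.47 ± 0.53 (95% interval 0.16 to 2.78; adjusted p = 0.672, limma) or 0.79 without WT replicate 1. In reads it had 12 and 32 reads in WT against 124 and 93 reads in labelled KO, a ratio of scaled counts of 3.09 (95% interval 2.23 to 4.37) for counting error only. Rrm2, the small subunit whose level follows S phase, had 2.99 and 20.7 RPKM in the WT libraries and 19.1 and 21.4 RPKM in the labelled-KO libraries, on 5 and 27 reads in WT against 48 and 48 reads in labelled KO. The other 3 libraries stood together with WT replicate 1 below them, so the difference of 1.19 ± 0.80 became -0.030 without it. Per kb of coding sequence the 2 subunits stayed within 1.05-fold to 1.71-fold of each other in every library, while their mean density was 7.73 and 38.8 in WT and 51.4 and 49.6 in labelled KO. In WT replicate 1 the 2 subunits together had 17 reads. Tyms, thymidylate synthase, had 0.817 and 2.44 RPKM in the WT libraries and 1.81 and 1.22 RPKM in the labelled-KO libraries, with overlapping groups and a difference of 0.00 ± 0.59.

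Among the genes that rebuild chromatin behind the fork, the methylation pair Dnmt1 and Uhrf1 differed in how the WT libraries stood. Dnmt1, the maintenance DNA methyltransferase, had 7.65 and 7.77 RPKM in the WT libraries and 17.5 and 12.4 RPKM in the labelled-KO libraries. The WT pair was nearly equal and both labelled-KO libraries were above it, with a difference of 0.86 ± 0.39 (95% interval -0.094 to 1.80; adjusted p = 0.676, limma) and 0.84 without WT replicate 1. In reads Dnmt1 had 34 and 27 reads in WT against 117 and 74 reads in labelled KO, a ratio of scaled counts of 1.96 (95% interval 1.46 to 2.66) for counting error only. Uhrf1, which binds hemimethylated DNA and brings Dnmt1 to it, had 2.34 and 12.5 RPKM in the WT libraries and 14.0 and 8.72 RPKM in the labelled-KO libraries. Its groups overlapped, and the difference of 0.85 ± 0.71 became -0.16 without WT replicate 1. Chaf1a and Chaf1b, the large and middle subunits of the histone chaperone CAF-1, had differences of 0.84 ± 0.74 and -0.35 ± 0.57, the latter with overlapping groups. Chaf1a had 0 reads in WT replicate 1 and passed the filter only through its labelled-KO values, and without WT replicate 1 its difference was 0.27.

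Slbp, which binds the stem-loop of replication-dependent histone mRNAs, had 4.37 and 5.24 RPKM in the WT libraries and 10.7 and 5.71 RPKM in the labelled-KO libraries (difference 0.61 ± 0.43, or 0.21 without labelled-KO replicate 1). Its second labelled-KO library lay just above the WT pair. Tipin, the partner of Timeless at the fork, had 5.33 and 4.54 RPKM in the WT libraries and 8.85 and 8.61 RPKM in the labelled-KO libraries (difference 0.72 ± 0.36, or 0.28 after removal of the trend on coding GC and length), with close replicates in both groups on 6 and 4 reads in WT against 15 and 13 reads in labelled KO.

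**Figure D4:**
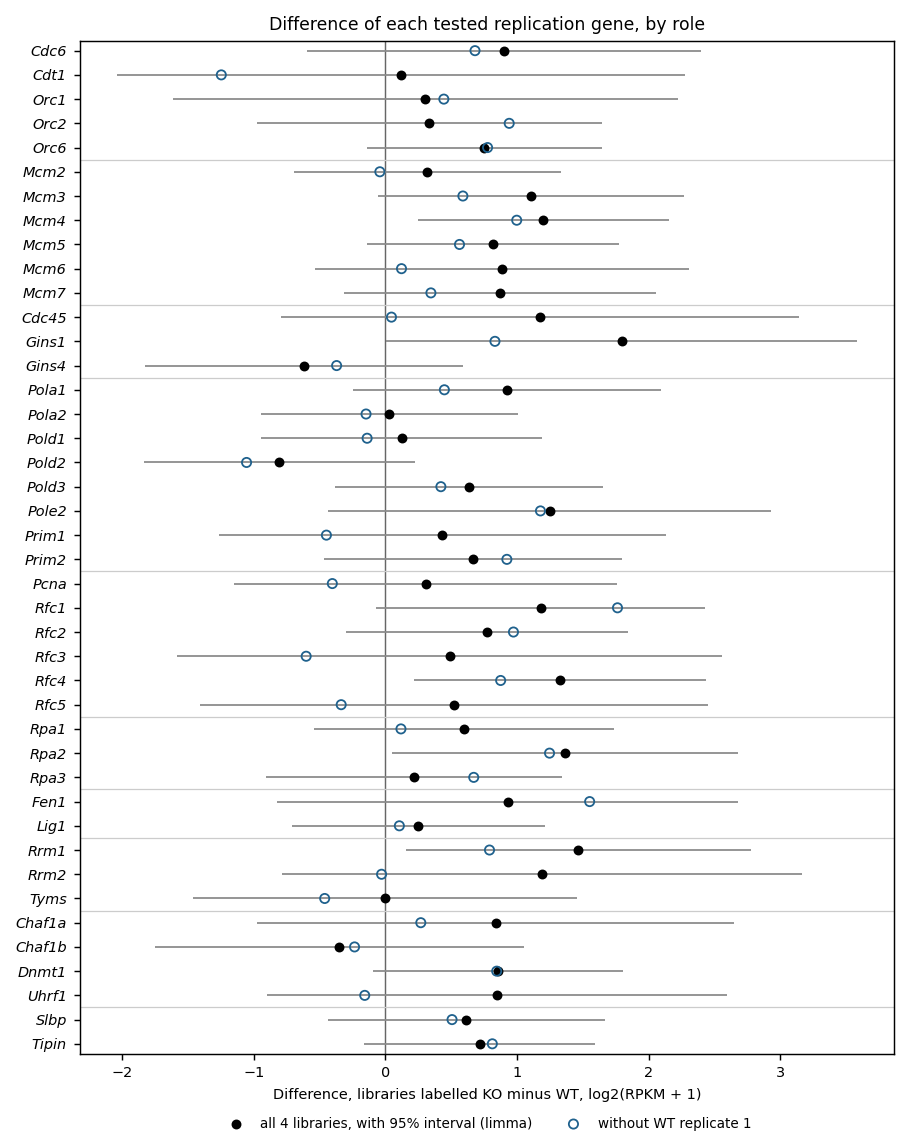
Difference of each of the 42 tested genes, labelled KO minus WT on the log2(RPKM + 1) scale, with genes in rows by role; black points are the limma fit on all 4 libraries with 95% intervals, and open blue circles the fit without WT replicate 1. The intervals of Mcm4, Rfc4, Rrm1, Rpa2 and Gins1 lie above 0, and the open circles of 10 genes with a positive black point lie below 0.

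Sequence composition moved with the group difference over all genes. Protein-coding genes tested with a coding GC content under 48.4% had a median log2 difference of 0.32, and those over 57.5% had -0.31. The replication genes tested had a median coding GC of 50.1%. The 15 of them in the low class had a median difference of 0.75 and the 24 in the middle class 0.79, where all protein-coding genes of the middle class had 0.073. The 3 in the high class, Cdt1, Pold1 and Pold2, had a median of 0.12. After the trend on coding GC and length was taken out of each library, the median of the replication genes was 0.49. eIF5A is known to relieve ribosomes stalled on runs of proline, so such runs were counted. At least 3 prolines in a row were encoded by 7 of the 42 genes (16.7%), Rfc1, Dnmt1, Tipin, Pola1, Pold3, Uhrf1 and Lig1, and by 25.8% of the protein-coding genes tested. The median log2 difference was 0.85 in these 7 genes and 0.67 in the other 35, where protein-coding genes tested had -0.13 with such a run and 0.12 without.

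Other genes of the cell cycle had mostly positive differences too. Of 53 further replication and S phase genes 40 were tested, 30 with a positive difference and a median of 0.38 (0.18 without WT replicate 1). Both labelled-KO libraries were above both WT libraries in 16 of the 40 and below in 3, beside 20.1% and 20.3% of all genes tested, and none passed an adjusted p of 0.05. At an unadjusted p under 0.05, 4 of the 40 were higher in labelled KO and 1 was lower, beside 2.86% and 4.46% of all genes tested. Asf1b, a histone chaperone, had 0.709 and 1.82 RPKM in the WT libraries and 8.02 and 5.30 RPKM in the labelled-KO libraries (difference 1.78 ± 0.46, on 1 and 2 WT reads). Ccna2, cyclin A2, had a difference of the same sign (1.69 ± 0.61, or 1.01 without WT replicate 1, on 0 and 3 WT reads), as did its kinase partner Cdk2 (1.02 ± 0.39) and the pocket protein gene Rbl1 (1.14 ± 0.40). Pold4, the smallest subunit of polymerase delta, had 7 and 5 reads in WT against 2 and 5 reads in labelled KO (difference -1.30 ± 0.48, or -0.74 without labelled-KO replicate 1). Of 30 mitosis genes, all tested, 27 had a positive difference with a median of 0.66 (0.40 without WT replicate 1), and both labelled-KO libraries were above both WT libraries in 18 of the 30 and below in 1, Cenpa (difference -0.98 ± 0.42), beside 20.1% and 20.3% of all genes tested. At an unadjusted p under 0.05, 2 of the 30 were higher, beside 2.86% of all genes tested, Smc2 of condensin (difference 1.32 ± 0.38) and the spindle factor Tpx2 (difference 1.25 ± 0.45, or 0.78 without WT replicate 1), and none passed an adjusted p of 0.05. A difference between the replication genes and these lists was not tested.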

How the data were processed

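Ribosome footprints were measured in 4 libraries, WT and KO with 2 each, grouped by their labels. The authors removed low-quality, rRNA and tRNA reads, aligned the rest with TopHat2 to mouse (mm10, Ensembl release 97) and counted genes with HTSeq; whether strand was used is not given in the sources used here. The deposited values are RPKM per gene, with gene length. Multiplied by length they were proportional to whole reads in 100% of values (tolerance 0.01 reads), and their scaling followed median-of-ratios size factors. The table held 55573 genes.

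Genes with a mean of at least 1 RPKM (11363) were tested with limma 3.58.1 in R 4.3.3 (lmFit, eBayes with trend) on log2(RPKM + 1), which understates the change of low genes, and p-values were Benjamini-Hochberg adjusted over all of them. Errors of differences are standard errors with n = 2 per group. With 2 against 2, an exact permutation test of a single value cannot go below p = 0.333, so none is given. The fit was tested on simulated counts with a preset spread, so that test does not give its error rate at the spread of these libraries. Coding sequences came from GENCODE release 21 (vM21), promoters from RefSeq. Motifs were counted as exact letters. The replicate number was not used as a pairing in the main fit. The deviations of same-numbered libraries correlated at 0.057 over the genes tested, which cannot show whether they shared a litter or day.

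The 46 genes, the lists and their roles were chosen with earlier results of these data known. Named genes were those at an unadjusted p under 0.05, those at least 2-fold apart with separate groups, the most counted and the most and least different of each role, those with proline runs and those with a promoter shown. The remaining members were named after their values were seen. Alternatives were other pseudocounts, filters, normalizations, variance models, voom on recovered reads, removal of GC and length trends, the replicate block and leaving out each library.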

Additional observations from a re-analysis of the deposited data

How the results depend on the processing

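No replication gene passed an adjusted p of 0.05 under any of the 18 alternatives run, and the median log2 difference was positive under all of them. It was 1.19 with scaling to total reads, which moved the median of all genes to 0.50, and 0.43 to 1.04 when 1 library was left out. The count of genes higher at an unadjusted p under 0.05, 5 as reported, was 3 with no filter (2.13% of all genes tested there), 2 with no variance trend (2.51%), 18 with scaling to total reads (14.8%), 9 with voom (3.74%), and 1 to 14 with 1 library left out (1.80% to 7.12%); a lone library was then assumed to vary like the other group. Both labelled-KO libraries lay above both WT libraries in 13 of the 21 genes tested at a mean of at least 5 RPKM (23.9% of all genes tested there), in 17 of the 42 after removal of the trend on GC content and length (18.3%), and in 25 to 35 of the 42 with 1 library left out, where fewer values have to be cleared and 31.7% to 35.9% of all genes did so. With the replicate block the count was 5 and the median 0.73; Gins1 was no longer under an unadjusted p of 0.05 and Rfc1 was, while Mcm4, Rfc4, Rrm1 and Rpa2 stayed under it. With the replicate block and removal of the trend on GC content and length in 1 fit, 10 genes were higher and 1 lower at an unadjusted p under 0.05, where 4.76% and 5.37% of all genes tested were.

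Of 721 values of single genes under alternatives, 32 changed sign. When each library's trend on GC content and length was taken out, whether or not the replicate block was used, the difference was -0.021 for Orc2, -0.095 for Pcna and -0.26 for Rpa3. Tyms, at about 0 as reported, was 0.057 with a pseudocount of 0.1, 0.066 with median centring, 0.053 with quantile normalization, 0.39 with scaling to total reads and 0.11 with voom. Chaf1b was 0.053 with scaling to total reads. Both values under that scaling lie below its common shift of 0.50, so relative to other genes neither was higher. With 1 library left out, the lowest and highest differences were -1.25 and 1.48 for Cdt1, -0.39 and 1.00 for Orc1, -0.27 and 0.94 for Orc2, -0.043 and 0.68 for Mcm2, -0.23 and 0.28 for Pola2, -0.22 and 0.46 for Pold1, -0.45 and 1.31 for Prim1, and -0.40 and 1.01 for Pcna. For the remaining genes that changed sign they were -0.60 and 1.58 for Rfc3, -0.34 and 1.37 for Rfc5, -0.24 and 0.67 for Rpa3, -0.014 and 0.51 for Lig1, -0.030 and 2.41 for Rrm2, -0.46 and 0.46 for Tyms, -0.98 and 0.28 for Chaf1b, and -0.16 and 1.85 for Uhrf1. The causes of these changes were not tested. Depth limits the values of single genes, and 9 of the 46 had under 20 reads over the 4 libraries.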
